A study of Mus musculus with 2 samples.

Results

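The genes described here are the replication-dependent histone genes of the mouse, which encode the linker histone H1 and the core histones H2A, H2B, H3 and H4 that package newly copied DNA. They were taken as every gene whose GENCODE M21 symbol begins with Hist, a cluster number and h, which gives 70 symbols. By gene identifier, 67 of them had a row in both deposited gene tables, out of 43346 genes in all, and Hist1h2bm, Hist1h2bh and Hist2h2bb were not analysed here. Of the 67 genes, 64 are protein-coding and 3 are pseudogenes (Hist1h2aj, Hist1h2al and Hist3h2bb-ps). By type there are 6 H1, 20 H2A, 16 H2B, 12 H3 and 13 H4 genes. By cluster, 54 carry a Hist1 name on chromosome 13, 9 a Hist2 name on chromosome 3, 3 a Hist3 name on chromosome 11 and 1 a Hist4 name on chromosome 6.

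Polyadenylated RNA of MEL cells, an immortalized mouse erythroleukemia line whose cells resemble early red-cell precursors, was sequenced single-end in 2 libraries. The labels call them biological replicates 1 and 2 of 1 group, state no treatment, and do not say whether they came from separate cultures. With 1 group there is no contrast between conditions, so the values below are descriptions of these libraries with no p-value. Replicate 1 held 67735380 and replicate 2 held 79923143 expected counts, which are reads per gene estimated with multi-mapped reads shared out by a model.

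Most metazoan mRNAs end in a poly(A) tail, but the mRNAs of replication-dependent histone genes normally end a few bases after a conserved stem-loop. The stem-loop binding protein SLBP and the U7 small nuclear ribonucleoprotein direct the cut there, and SLBP then stays on the mRNA through translation and until its decay at the end of S phase. These genes lie in clusters, lack introns with few exceptions, and often face a neighbour across a short shared promoter. A library of polyadenylated RNA is therefore expected to hold few of their mature transcripts, although some histone genes are known to yield polyadenylated forms from signals downstream of the stem-loop.

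The stem-loop is the sequence on which the measurement turns, so the end of several transcripts is shown first. Each line gives the 14 bases before the stem-loop in lower case and the 16 bases of the stem-loop in capitals, from GENCODE M21 transcripts on GRCm38 (mm10), 5′ to 3′ on the strand of the gene. All of them lie in the 3′ untranslated part of the transcript. Hist1h2ao and Hist1h2ap are the members with the highest levels, Hist1h2ae and Hist1h2ag are H2A genes at ordinary levels, Hist1h4d and Hist1h4b are the highest H4 genes with a stem-loop in the model, and Hist1h3c is an H3 gene with the longest run of A directly before the stem-loop among the other members.
Hist1h2ao, chr13:21810884-21810913, plus strand: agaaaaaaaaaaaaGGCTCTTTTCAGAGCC
Hist1h2ap, chr13:21833029-21833058, minus strand: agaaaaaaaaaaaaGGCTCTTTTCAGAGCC
Hist1h2ae, chr13:23570668-23570697, minus strand: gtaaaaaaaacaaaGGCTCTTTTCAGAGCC
Hist1h2ag, chr13:22042483-22042512, minus strand: tgatcgccaacaaaGGCTCTTTTCAGAGCC
Hist1h3c, chr13:23745047-23745076, minus strand: gctatttaaaaaaaGGCTCTTTTAAGAGCC
Hist1h4d, chr13:23581936-23581965, plus strand: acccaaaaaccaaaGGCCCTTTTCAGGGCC
Hist1h4b, chr13:23757352-23757381, plus strand: taactgttacaaaaGGTCCTTTTCAGGACC

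A stem-loop of this form was found in the models of 44 of the 67 genes, namely 4 H1, 11 H2A, 8 H2B, 9 H3 and 12 H4 genes. Among 17327 protein-coding transcripts of other genes, 19 (0.110%) held a match. The 44 genes carried 8 versions of the 16 bases. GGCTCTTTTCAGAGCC was the version of 24 genes, 10 of them H2A, 6 H2B, 5 H3 and 3 H1. No H4 gene carried it. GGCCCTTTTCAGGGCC was the version of 7 genes, all of them H4, and the other 5 H4 genes with a stem-loop had versions that begin with GGCC or GGTC. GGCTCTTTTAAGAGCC was found in 3 H3, 2 H2B and 1 H1 genes. In these models no version was shared between H4 and another type.

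Across the family, levels were low, and 1 gene was listed at 0 in both replicates. Levels are given as TPM, a measure of transcript abundance corrected for effective length and library size. In both replicates, 49 of 67 genes reached 1 TPM, against 26.9% of all genes and 46.8% of protein-coding genes in the tables. All 49 are protein-coding, out of 64. A further 4 genes reached 1 TPM in only 1 replicate, 14 stayed below it in both, and 45 had a mean TPM from 1 to 20. The median gene stood at 3.33 TPM in replicate 1 and 4.64 TPM in replicate 2, and the median of mean TPM was 3.87. Over all protein-coding genes the median of mean TPM was 0.49, and over those that reached 1 TPM in both replicates it was 23.0. The median histone gene thus lay above the first of these levels and below the second in both replicates.

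**Figure D1:**
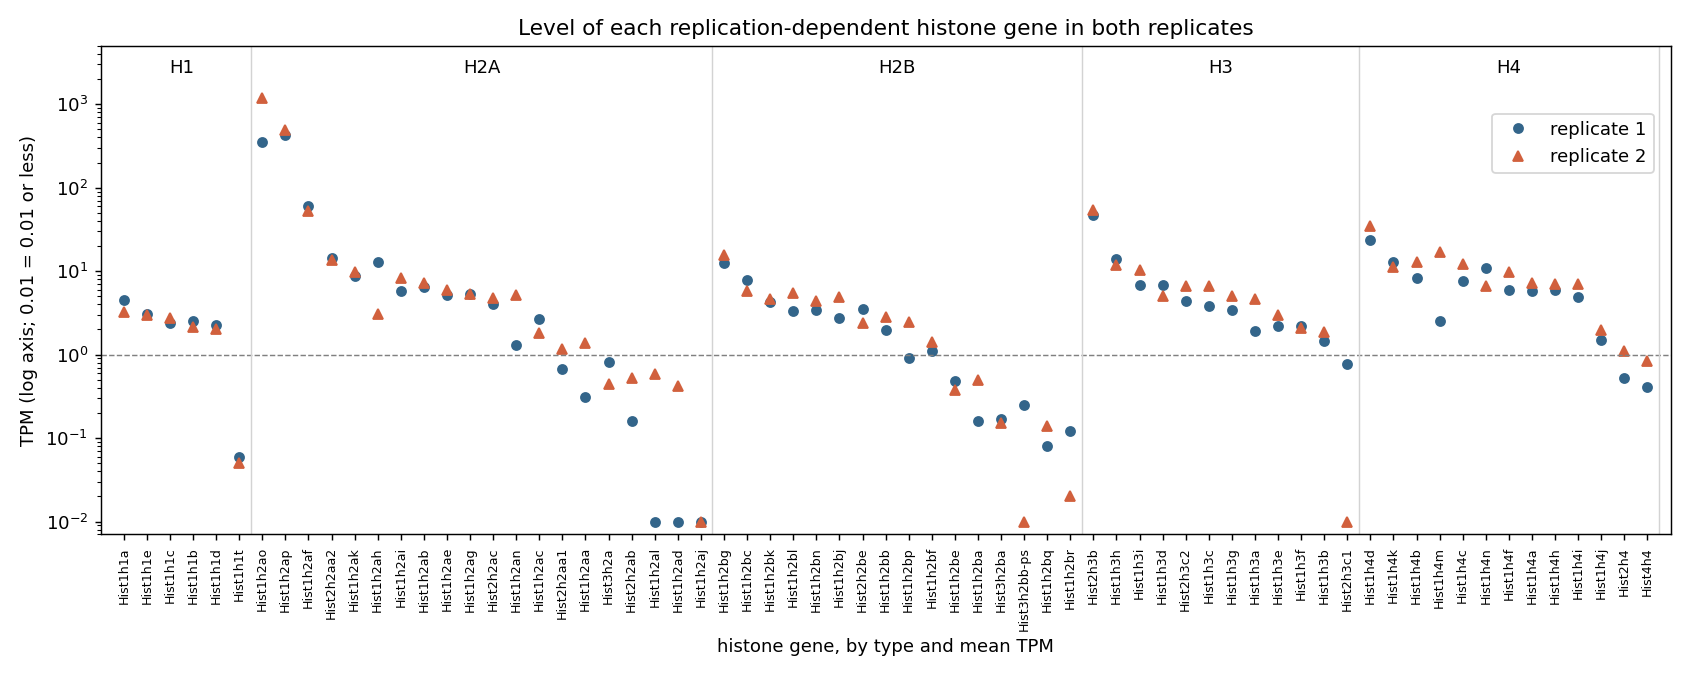
TPM of each of the 67 histone genes (log axis) in replicate 1 (circles) and replicate 2 (triangles), by type and falling mean TPM, with a dashed line at 1 TPM and values of 0.01 or less drawn at 0.01. Hist1h2ao and Hist1h2ap stand above every other gene, and 49 genes lie at or above the line in both replicates.

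Together the 67 genes took 0.119% of the TPM of all genes in replicate 1 and 0.223% in replicate 2, a mean of 0.171% ± 0.0736 (SD, n = 2). Of expected counts they took 0.0350% in replicate 1 (95% Wilson interval 0.0346% to 0.0355%) and 0.0678% in replicate 2 (0.0672% to 0.0683%), and these intervals cover counting error only. The difference between the replicates lay almost wholly in 2 genes. Without Hist1h2ao and Hist1h2ap, the other 65 genes took 0.0384% and 0.0454% of TPM. The summed counts of the pair were 15705 and 42761, which is 2.12-fold higher in replicate 2 after scaling of library sizes by TMM (trimmed mean of M values). The summed counts of the other 65 genes were 1.11-fold higher in replicate 2 on the same scale.

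Hist1h2ao, an H2A gene at chr13:21810465-21810944 on the plus strand, had 351.65 TPM in replicate 1 and 1178.78 TPM in replicate 2. Hist1h2ap, an H2A gene at chr13:21833026-21833507 on the minus strand, had 428.11 and 485.23 TPM. By TPM they ranked 338th and 269th among 21474 protein-coding genes in replicate 1, and 88th and 228th in replicate 2. Both have 1 exon, and their annotated coding sequences of 390 nt did not differ at any base. Together they held 67.6% of all histone TPM in replicate 1 and 79.6% in replicate 2. The next highest histone gene stood at 61 TPM in replicate 1 and 53.4 TPM in replicate 2. Hist1h2ap was above it by 7.02-fold and 9.09-fold.

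The order of the pair differed between the libraries. The TPM of Hist1h2ao was 0.821 times that of Hist1h2ap in replicate 1 and 2.43 times in replicate 2. Because the coding sequences are identical, the division of reads between the genes rests on the bases outside them. Of all 45-base words in Hist1h2ao, 6.42% occurred in no other transcript, and in Hist1h2ap 6.85% did. The deposited credibility intervals of TPM ran from 303 to 381 in replicate 1 and from 1111 to 1192 in replicate 2 for Hist1h2ao, and from 377 to 453 and from 438 to 514 for Hist1h2ap. The intervals of the 2 genes overlapped in replicate 1 and did not in replicate 2. Their summed level, 780 and 1664 TPM, does not depend on how reads were divided between these 2 genes.

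Hist1h2ao and Hist1h2ap share a feature that no other histone transcript compared has. In the 30 bases printed above, a run of 12 A stands directly before the stem-loop, and the 30 bases are the same in both. The comparison took the 50 histone transcripts whose model has the same version in the annotation used by the authors (GENCODE M4) and in GENCODE M21. The next longest run of A in any of those transcripts was 7, and the median over the other 48 was 4. Among 17327 protein-coding transcripts of other genes, 3.67% had a run of at least 12 A, and among the 3468 of at most 600 nt 0.490% did. The stem-loop is followed by 31 bases in the model of Hist1h2ao and by 3 bases in that of Hist1h2ap, so in both the run of A lies near the 3′ end. Hist1h2ae, whose window above has a run of 8 A with 3 more A after a single c, stood at 5.16 and 6 TPM. Hist1h3c, with 7 A before the stem-loop, stood at 3.82 and 6.60 TPM. Those models changed between releases and were outside the comparison. Hist1h2ac has a run of 15 A in the GENCODE M21 model, and its model also changed, so whether the transcript measured holds that run was not examined. Hist1h2ac stood at 2.67 and 1.84 TPM. The same limit holds for Hist1h2be-201 and Hist1h2be-202, changed models with a run of 11 A, and the gene Hist1h2be stood at 0.48 and 0.38 TPM. The part of the run of A in the level of Hist1h2ao and Hist1h2ap was not tested.

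**Figure D2:**
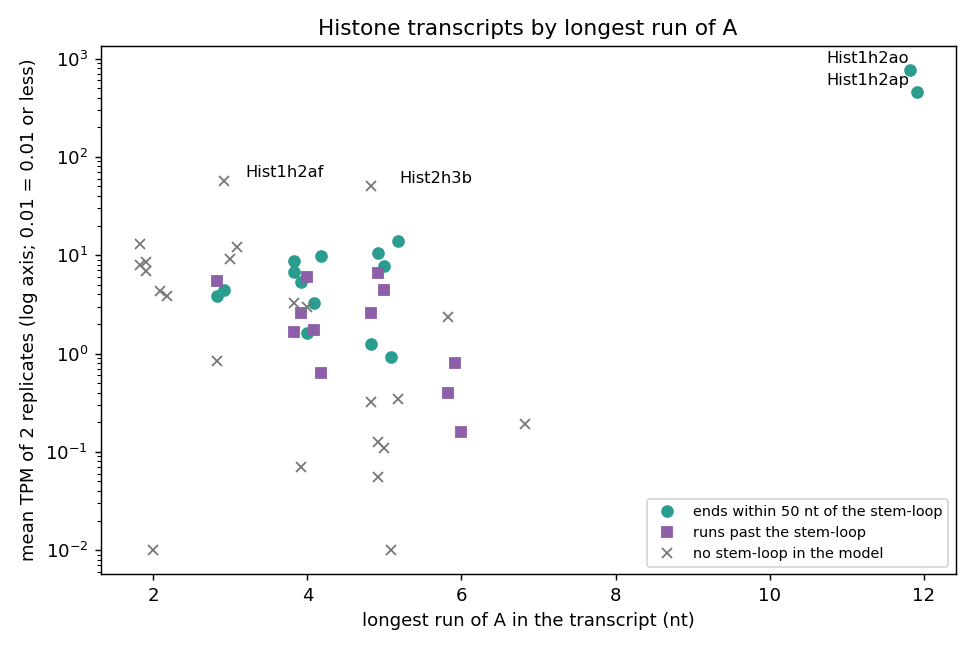
Mean TPM of 2 replicates (log axis) against the longest run of A in each of the 50 histone transcripts with the same model in both releases, with points shifted slightly sideways where they would overlap. Hist1h2ao and Hist1h2ap, with 12 A, lie apart from the other transcripts, whose longest run is 7.

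The regions before the 2 genes are alike as well. The RefSeq promoter windows (GRCm38.p6, 250 bases before to 50 bases after the annotated start) share a stretch of 200 bases without a difference, which is as much as the windows have in common because the annotated starts are offset. The first 150 of those bases lie upstream of both starts and are shown because they lead 2 genes with unlike levels in replicate 2. Capitals mark CCAAT on either strand, which occurs at 2 places.
Hist1h2ao, chr13:21810217-21810366, plus strand: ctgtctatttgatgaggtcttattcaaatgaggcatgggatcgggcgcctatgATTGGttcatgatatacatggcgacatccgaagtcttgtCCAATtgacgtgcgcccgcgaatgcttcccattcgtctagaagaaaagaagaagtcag
The same bases stand on the minus strand at chr13:21833576-21833725 before Hist1h2ap. The H2B genes on the other side of these promoters were near 0. Hist1h2bq had 0.08 and 0.14 TPM, and Hist1h2br had 0.12 and 0.02 TPM. The models that held this TPM, of 2015 and 1256 nt, have no stem-loop. Only 2.49% and 0.165% of their 45-base words were unique, so the division of reads to them is uncertain. The deposited upper credibility bounds of TPM were 0.185 and 0.186 for Hist1h2bq and 0.296 and 0.245 for Hist1h2br. The H4 genes next to them, Hist1h4m and Hist1h4n, also had identical coding sequences, of 309 nt. Hist1h2bq, Hist1h2ao and Hist1h4m thus lie along the chromosome in one order, and Hist1h4n, Hist1h2ap and Hist1h2br follow in the mirrored order.

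H1 histones bind the linker DNA between nucleosomes. The 5 H1 genes made in dividing somatic cells were all between 1 and 20 TPM. Hist1h1a had 4.57 and 3.27 TPM, Hist1h1b 2.51 and 2.17 TPM, Hist1h1c 2.38 and 2.74 TPM, Hist1h1d 2.28 and 2.04 TPM, and Hist1h1e 3.08 and 2.96 TPM. Hist1h1a lay above the others in both replicates and Hist1h1e above the remaining 3, while the values of Hist1h1c overlapped with those of Hist1h1b, and those of Hist1h1b with those of Hist1h1d. Hist1h1t, which encodes the H1 of male germ cells, had 0.06 and 0.05 TPM from 2 counts in each library.

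H2A genes held 78.9% and 85.5% of histone TPM, and 34.7% and 28.7% of what remained without Hist1h2ao and Hist1h2ap. Next after the pair by mean TPM was Hist1h2af, with 61 and 52.8 TPM (just below Hist2h3b in replicate 2), and its model of 399 nt has no stem-loop. Hist2h2aa2 had 14.45 and 13.48 TPM, while Hist2h2aa1, whose coding sequence is identical, had 0.68 and 1.16 TPM. No 45-base word of Hist2h2aa2 was unique to it, while 10.5% of those of Hist2h2aa1 were unique to that gene. The deposited credibility intervals of TPM did not overlap between these copies in either replicate. They ran from 11.1 to 15.8 and from 10.4 to 15.2 for Hist2h2aa2. For Hist2h2aa1 they ran from 0.00110 to 2.54 and from 0.124 to 2.95. The sum of the 2 copies was 15.1 and 14.6 TPM. Hist1h2ak had 8.63 and 9.70 TPM, Hist1h2ab 6.42 and 7.12 TPM, and Hist2h2ac 4.06 and 4.74 TPM. Hist1h2aa, the H2A gene of testis, had 0.31 and 1.37 TPM from 4.96 and 27.9 counts. An expected count of 0 in this family is an estimate of how shared reads were divided. Hist1h2ad was listed at 0 in replicate 1 and at 0.42 TPM in replicate 2, but its deposited posterior mean was 2.20 and 0.81 TPM, with an upper credibility bound of 5.79 TPM in replicate 1. The pseudogene Hist1h2al was listed at 0 and 0.59 TPM, with a posterior mean of 0.29 and 0.69 TPM. The pseudogene Hist1h2aj was listed at 0 in both libraries, with a posterior mean of 0.74 and 0.50 TPM and upper bounds of 2.16 and 1.48 TPM.

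The H2A genes differ little in protein. The 18 protein-coding H2A genes have 16 coding sequences and 9 proteins, and Hist1h2ab, Hist1h2ac, Hist1h2ad, Hist1h2ae, Hist1h2ag, Hist1h2ai, Hist1h2an, Hist1h2ao and Hist1h2ap encode the same protein of 130 residues. That protein was the product of 806 and 1698 TPM. Hist1h2af differs from Hist1h2ao at 6 of 390 coding bases and encodes another H2A protein of the same length. Hist1h2ah, whose protein of 128 residues is shorter, had 12.71 TPM in replicate 1 and 3.06 TPM in replicate 2.

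H2B genes were the lowest of the core histones. The type summed to 43.0 and 51.0 TPM over 16 genes, of which 9 reached 1 TPM in both replicates. Hist1h2bg led with 12.61 and 15.57 TPM, followed by Hist1h2bc with 7.84 and 5.78 TPM and Hist1h2bk with 4.27 and 4.68 TPM. The first 2 kept their order in both replicates, while Hist1h2bl, with 3.33 and 5.40 TPM, lay below Hist1h2bk in replicate 1 and above it in replicate 2. Hist2h2be had 3.53 and 2.41 TPM, the H2B gene of testis Hist1h2ba 0.16 and 0.49 TPM, and Hist3h2ba 0.17 and 0.15 TPM. Hist1h2be had 0.48 and 0.38 TPM, and it overlaps Hist1h1e on the same strand. The 15 protein-coding H2B genes encode 8 proteins.

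Many H2A and H2B genes face each other from opposite strands, and 13 such pairs lay within 1000 nt, with gaps of 172 to 305 nt. The H2A gene was higher in both replicates in 9 pairs and the H2B gene in 3, and in the pair of Hist1h2ah and Hist1h2bk the order differed between the replicates. The 9 include Hist3h2a with the pseudogene Hist3h2bb-ps, at 0.25 and 0 TPM. They also include Hist1h2aa with Hist1h2ba, which rests on few counts (4.96 and 27.9 against 2.52 and 9.89). The 3 pairs led by H2B were Hist1h2ae with Hist1h2bg, Hist1h2ac with Hist1h2bc and Hist1h2ad with Hist1h2bf. By posterior mean TPM the order of the last pair turned in replicate 1, with 2.20 for Hist1h2ad and 1.18 for Hist1h2bf. In the first of these, Hist1h2ae stood at 5.16 and 6 TPM and Hist1h2bg at 12.61 and 15.57 TPM, so the replicates do not overlap between the genes. Hist1h2ag had 5.29 and 5.28 TPM and Hist1h2bj 2.78 and 4.94 TPM, so these genes lay close together in replicate 2 and further apart in replicate 1. The ratio of mean TPM, H2A over H2B, was 2.37 for Hist1h2ak over Hist1h2bn and 0.331 for Hist1h2ac over Hist1h2bc.

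**Figure D3:**
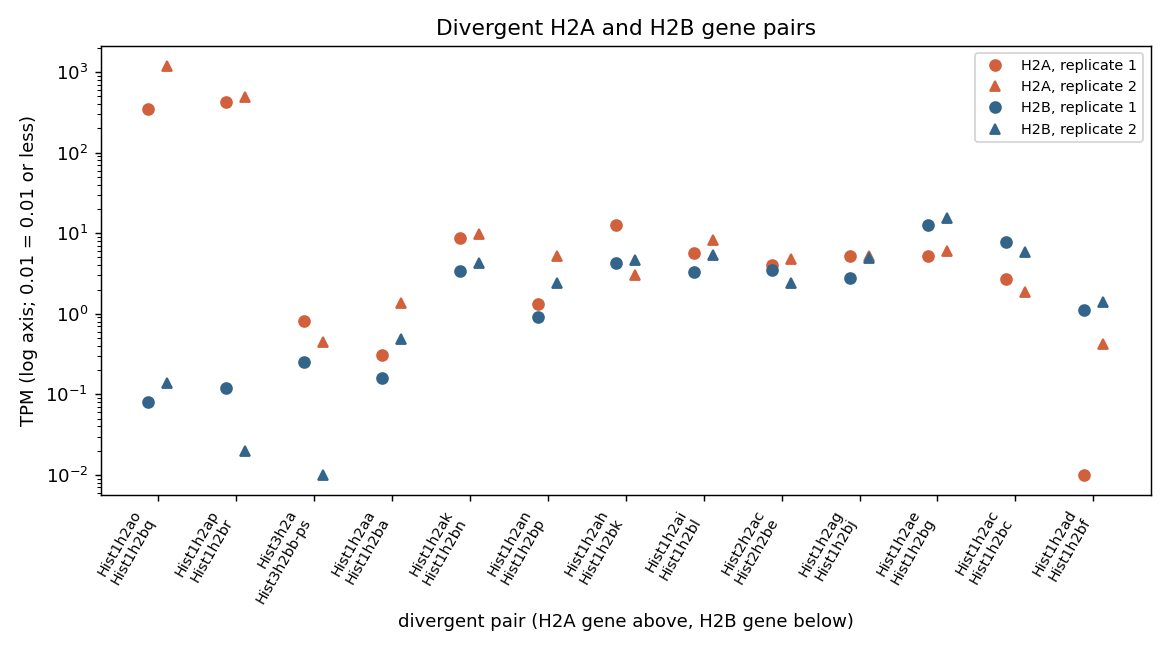
TPM (log axis) of the 13 divergent pairs of an H2A gene (orange) and an H2B gene (blue) in replicate 1 (circles) and replicate 2 (triangles), by falling ratio of mean TPM, with values of 0.01 or less drawn at 0.01. Hist1h2ao and Hist1h2ap lie at 351.65 TPM or more and their H2B neighbours at 0.14 TPM or less, and the 3 pairs at the right have the higher TPM on the H2B gene.

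H3 genes summed to 94.9 and 110 TPM. Hist2h3b alone had 46.9 and 53.4 TPM, in a model of 488 nt without a stem-loop. Next were Hist1h3h with 14.08 and 11.90 TPM and Hist1h3i with 6.84 and 10.25 TPM. The lowest, Hist2h3c1, had 0.78 and 0.01 TPM. The 12 genes encode 2 proteins of 136 residues. Hist1h3a, Hist1h3g, Hist1h3h and Hist1h3i encode the one known as H3.1 and summed to 26.2 and 31.8 TPM. The other 8 genes, which include Hist2h3b, encode the one known as H3.2 and summed to 68.6 and 78.5 TPM. The H3.2 genes were thus higher than the H3.1 genes in both replicates, and below them in both when Hist2h3b was left out of the sum.

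H4 genes had the highest median level of the types. The 13 genes have 12 coding sequences but encode a single protein of 103 residues, and 11 of them reached 1 TPM in both replicates. Hist1h4d had the highest level in both replicates, with 23.8 and 34.4 TPM. By mean TPM it was followed by Hist1h4k with 12.8 and 11.2 TPM and Hist1h4b with 8.37 and 12.8 TPM, but in replicate 2 Hist1h4m, with 17.1 TPM, was second. Hist1h4c, Hist1h4f, Hist1h4h, Hist1h4a and Hist1h4i all lay between 4.87 and 12.03 TPM in both libraries. The lowest H4 genes were Hist2h4, with 0.53 and 1.09 TPM, and Hist4h4, with 0.41 and 0.83 TPM, which are the only H4 genes outside the Hist1 cluster. The median of mean TPM was 7.84 for H4 genes, 4.84 for H2A, 4.71 for H3, 2.45 for H1 and 2.04 for H2B.

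Histone transcripts were then sorted by where their model ends. Of the 72 transcripts of the 67 genes, 50 kept their version between the releases. In 15 of these the model ends within 50 nt after the stem-loop, at 3 to 38 nt. The processed mRNA ends a few bases after it, so not all of these models have a processed end. The 15 held 73.3% and 84.0% of histone TPM, and 17.5% and 21.5% without Hist1h2ao and Hist1h2ap. In 12 the model runs more than 50 nt past the stem-loop, by up to 1643 nt. They held 2.51% and 1.76%, and 7.77% and 8.66% without the pair. In 23 the model holds no stem-loop, most of them short models with a median length of 411 nt. Some hold only the coding part, such as Hist1h4k with 312 nt for 103 residues and Hist1h3h with 411 nt for 136. There the lack of a stem-loop is a limit of the annotation. The 23 held 15.98% and 8.75%, or 49.4% and 42.9% without the pair, the largest of the 4 classes then. The remaining 22 transcripts, whose model changed, held 8.19% and 5.49%, or 25.3% and 26.9% without the pair.

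A polyadenylation signal, AATAAA or ATTAAA, stood in the last 50 nt of 8 of the 12 transcripts that run past the stem-loop. It stood there in 0 of the 15 that end within 50 nt of the stem-loop. It also stood there in 5 of the 23 models without a stem-loop, in 7 of the 22 whose model changed, and in 45.3% of the protein-coding transcripts of other genes. The 8 that run past the stem-loop were those of Hist1h1c, Hist1h4a, Hist1h4i, Hist1h4j, Hist2h3c1, Hist2h4, Hist3h2a and Hist3h2ba. By TPM the transcripts that run past the stem-loop were not the higher class. The median of mean TPM was 2.15 for these 12. It was 6.77 for the 15 that end within 50 nt of the stem-loop, or 5.29 for the 13 without Hist1h2ao and Hist1h2ap. The same count gives a lower TPM on a longer model, and the median lengths of the 12 and the 15 were 805 and 473 nt. The part of length in this difference was not tested. The longest of the 12, from Hist3h2a with 1643 nt after the stem-loop, had 0.81 and 0.45 TPM. The highest of the 12, from Hist1h4a with 108 nt after the stem-loop, had 5.81 and 7.23 TPM. A read count per model does not show where the RNA molecules ended, since reads from the shared coding part count toward the model whatever their 3′ end.

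Between the replicates, most histone genes leaned toward replicate 2 by a small amount. A summed count of at least 20 was required, which 58 genes met, and log2 ratios were taken on TMM-scaled counts. Of the 58, 7 were at least 2-fold higher in replicate 2 (12.1%, against 8.04% of all 15229 genes compared) and 2 were at least 2-fold higher in replicate 1 (3.45%, against 12.3%). In either direction the share was 15.5%, against 20.4% of all genes. Higher in replicate 2 by any amount were 39 of the 58 genes (67.2%), against 50.8% of all genes. The median log2 ratio was 0.30 over histone genes and 0.02 over all genes compared.

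By type, the median log2 ratio was 0.52 for H4, 0.39 for H3, 0.34 for H2B, 0.17 for H2A and -0.17 for H1. Of 13 H4 genes 11 were higher in replicate 2, and of 5 H1 genes 1 was. The 7 genes at least 2-fold higher in replicate 2 were Hist1h4m, Hist1h2aa, Hist1h2an, Hist1h2ao, Hist1h2bp, Hist1h3a and Hist2h4. Hist1h2an had 21.2 and 107 counts (log2 ratio 1.96), Hist1h3a had 42.9 and 134 counts (1.27), and Hist1h2bp had 18.8 and 61.1 counts (1.32). Hist1h2an and Hist1h2bp are divergent partners, and Hist1h2bp encodes an H2B. Hist2h4, with 38.7 and 101 counts, lay just past the threshold at a log2 ratio of 1.02, and Hist4h4, with 53.8 and 138 counts, just short of it at 0.99. The highest H4 gene, Hist1h4d, had 383 and 706 counts and lay at the median of its type (0.52). With 2 libraries and no further sample, a difference between the libraries cannot be told apart from a difference between the cells.

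**Figure D4:**
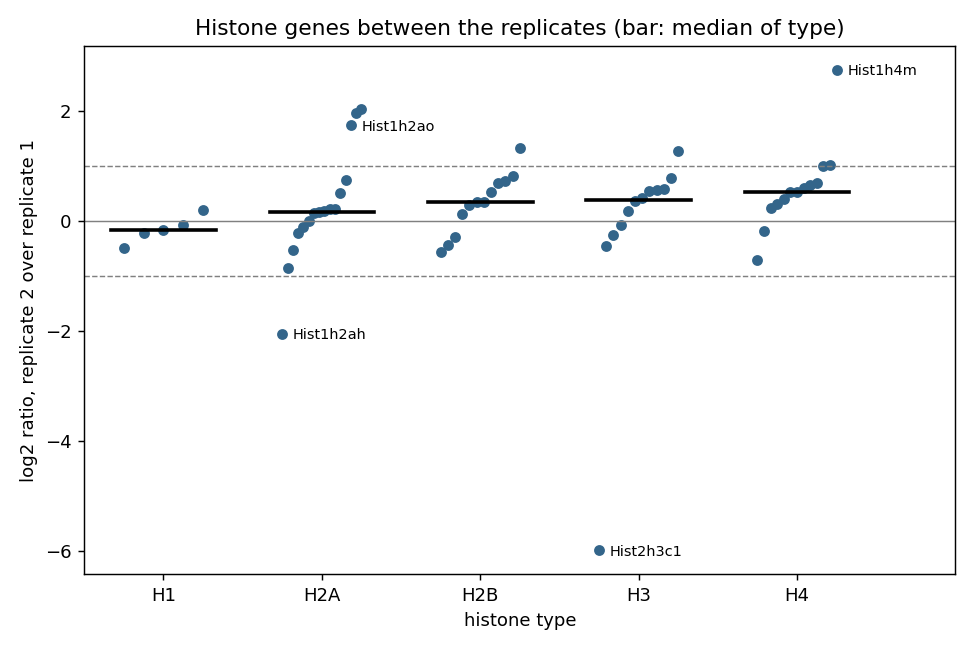
Log2 ratio of replicate 2 over replicate 1 for the 58 histone genes whose counts summed to 20 or more, by type, sorted within each type. Bars are the medians, from -0.17 for H1 to 0.52 for H4, and dashed lines mark a 2-fold difference.

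Several of the largest ratios belong to genes that share their sequence with a copy, and the sums over the copies differed less. Hist1h4m had 41.6 and 360 counts and Hist1h4n had 192 and 150 counts. One was thus 6.69-fold higher in replicate 2 while the other was lower there (log2 ratio -0.72), and their sum of 233 and 510 counts was 1.70-fold higher. Hist2h3c1 had 64.2 counts in replicate 1 and 0.75 in replicate 2, with a posterior SD of 19.98 and 4.12 counts, so no ratio is given for it. Its copy Hist2h3c2, with the same coding sequence, had 198 and 377 counts, and the sum of 262 and 377 counts was 1.12-fold higher in replicate 2. No 45-base word of Hist2h3c1 was unique to it, and 35.0% occurred in another histone gene. The other words occur in transcripts outside the family, so the sum over the copies does not cover all the reads that Hist2h3c1 may share. Hist1h2ah, the other gene at least 2-fold higher in replicate 1, had 211 and 65 counts (log2 ratio -2.05), and over the bases they share its coding sequence differs from that of Hist1h2ao at 3 places.

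The deposited posterior SD of the count states how uncertain the division of shared reads was within a library. It was compared with the counting error, the square root of the count. Among 53 histone genes with at least 20 counts in each library, 5 had a posterior SD over 3 times the counting error in both (9.43%, against 0.983% of the 13220 genes compared). They were Hist1h2ao, Hist1h2ap, Hist1h2ah and Hist1h2ai, which encode H2A, and Hist1h3i, which encodes H3. For Hist1h2ao the posterior SD was 397 and 526 counts, or 4.72 and 3.02 times the counting error. For Hist1h2ai it was 48.3 and 42.1 counts on 92.0 and 168 counts. Hist1h4m was over the threshold in replicate 1, at 5.52 times, and under it in replicate 2, at 2.63 times. The expected counts of Hist1h2ao were 7065 and 30251.

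The posterior SD followed how much sequence a gene has to itself. Over the 37 genes with the same model in both releases and enough counts, the share of 45-base words found in no other transcript ran from 0% to 99.9%, with a median of 32.6%. The word length follows from the deposited lengths and effective lengths, which differ by 44 nt. Across these genes the ratio of posterior SD to counting error fell as this share grew (Spearman's rho -0.81, Pearson's r -0.74, across genes that share sequence and libraries, so given as a description). By type, the median unique share was 16.3% for 12 H2A genes, 23.4% for 7 H3 genes, 32.6% for 7 H2B genes, 56.8% for 9 H4 genes and 95.2% for 2 H1 genes. H1 genes, whose sequences have diverged, had a median ratio of 0.120, and H2A genes had 1.88.

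**Figure D5:**
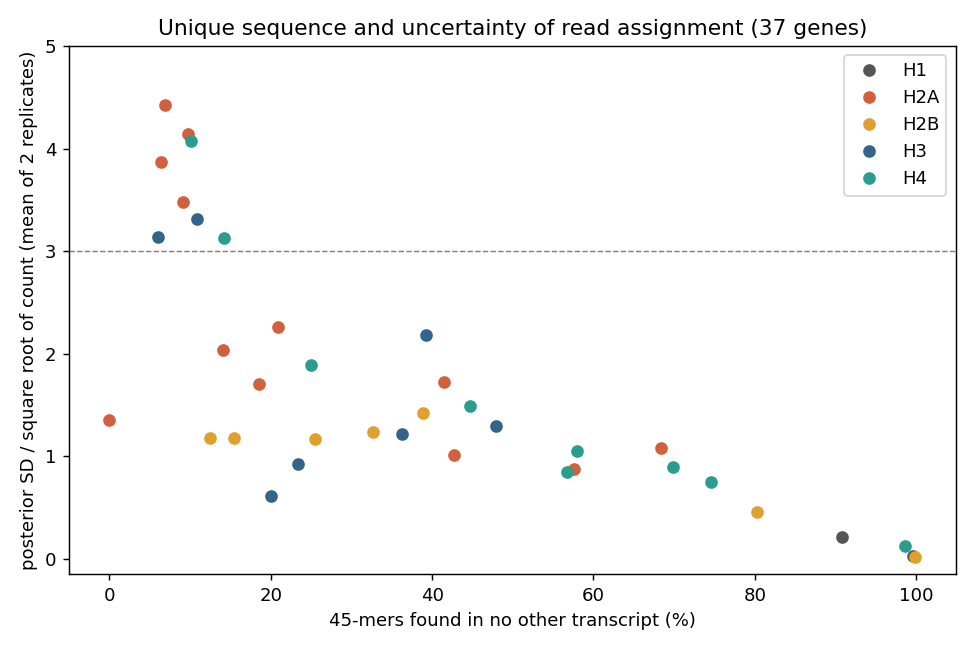
Ratio of the posterior SD of the count to the square root of the count (mean of 2 replicates) against the percentage of 45-base words found in no other transcript, for 37 histone genes colored by type. The genes above the dashed line at 3 have at most 14.2% unique words, and H1 genes lie at the lower right.

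Promoters were compared next, since histone genes are turned on together in S phase through short proximal elements. RefSeq windows were found for 59 of the 67 genes, and 3 motifs were searched on both strands. TATAAA, the TATA box, was in 35 windows (59.3%, against 13.6% of all 32851 windows). CCAAT, the box bound by nuclear factor Y, was in 50 (84.7%, against 37.4%), including every window of the H1, H2A, H2B and H3 genes and 3 of 12 of the H4 genes. ATTTGCAT, the octamer bound by OCT1, was in 11 (18.6%, against 1.74%), of which 7 were among 18 H2A and 4 among 13 H2B windows. Divergent partners can share a window in part, so these are not separate observations. Among H2A windows, those of Hist1h2ao, Hist1h2ap, Hist1h2af, Hist1h2ag, Hist1h2ai and Hist2h2aa2 had CCAAT but neither TATAAA nor the octamer, so this pattern was found at high and at ordinary levels. A match is a description of the letters in the window only.

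The genes that make and process histone mRNA were measured in the same libraries. Of 14 genes of stem-loop processing, 13 reached 1 TPM in both replicates, with a median of 81.2 TPM. Slbp, which encodes the stem-loop binding protein, had 285 and 180 TPM, and Cstf2, a cleavage factor subunit, had 310 and 267 TPM. Lsm10 and Lsm11, proteins of the U7 particle, were lower, with 21.6 and 37.7 TPM and with 8.84 and 15.3 TPM. Zfp473, the zinc finger protein of the same particle, had 1.19 and 0.73 TPM. By scaled counts, none of the 14 was at least 2-fold higher in replicate 2 (against 8.04% of all genes compared). In replicate 1, 1 was (against 12.3%), namely Casp8ap2 (FLASH), with 54.5 and 13.9 TPM. For Sympk, with 73.6 and 176 TPM, the log2 ratio by scaled counts was 0.94.

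All 11 genes of histone gene transcription reached 1 TPM in both replicates. Npat, the coactivator that cyclin E and CDK2 phosphorylate at histone loci, had 23.0 and 12.4 TPM, and Hinfp, a factor of H4 promoters, had 9.82 and 12.7 TPM. Ccne2, a cyclin E gene, had 83.9 and 26.8 TPM, the 1 gene of the list at least 2-fold higher in replicate 1, whereas Ccne1 had 65.6 and 59.7 TPM. All 8 genes of translation and decay were detected as well, from Xrn1, an exonuclease, at 13.2 and 6.30 TPM to Exosc10, a subunit of the nuclear exosome, at 60.5 and 83 TPM. Of these 8, 1 was at least 2-fold higher in replicate 1 by scaled counts (Tut4, log2 ratio -1.09) and none in replicate 2. The TPM of Tut4, 44.4 and 48.6, was slightly higher in replicate 2, so this call holds for counts and not for TPM. Of 12 genes of general cleavage and polyadenylation all 12 were detected, with a median of 49.965 TPM. The highest was Pabpn1, the nuclear poly(A)-binding protein, at 307 and 297 TPM. None differed 2-fold between the replicates by scaled counts, and Pcf11, with 29.6 and 13.8 TPM, had a log2 ratio of -0.84.

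The proteins that carry and deposit histones were abundant at the RNA level. All 16 chaperone and assembly genes reached 10 TPM in both replicates, with a median of 145 TPM. Nap1l1 had 1306 and 401 TPM, Rbbp7 508 and 415 TPM, and Nasp, which binds H3 and H4, 252 and 132 TPM. By scaled counts, Nap1l1, Hat1 and Supt16 of the 16 were at least 2-fold higher in replicate 1 (against 12.3% of all genes compared). None was in replicate 2 (against 8.04%). By TPM the difference was larger for Ipo4, with 31.6 and 99.1 TPM (log2 ratio 0.61 by scaled counts). It was also larger for Rbbp4, with 211 and 95.8 TPM (-0.51). The median log2 ratio was -0.40 for these genes and -0.45 for stem-loop processing, against 0.30 for histone genes and 0.02 for all genes.

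Replacement histones, which are made outside S phase from ordinary polyadenylated mRNAs, stood far above the replication-dependent genes. Of 10 genes 9 reached 10 TPM in both replicates, with a median of 128 TPM, against 3.87 TPM for the 67 replication-dependent genes. H2afz had 1306 and 2650 TPM, H3f3a 519 and 685 TPM, H3f3b 404 and 583 TPM, Cenpa, the centromeric H3, 328 and 381 TPM, and H1f0, a linker histone of differentiated cells, 24.1 and 31.8 TPM. H1fx was at 0 and 0.01 TPM. By scaled counts, 1 of the 9 genes compared between the replicates, H2afv, was at least 2-fold higher in replicate 2 (68.2 and 121 TPM, log2 ratio 1.01). None was in replicate 1, and the log2 ratio of H2afz by scaled counts was 0.39. H2afx, whose mRNA can end at a stem-loop or at a poly(A) tail, had 41.6 and 69.2 TPM. The 10 genes summed to 2876 and 4763 TPM and the 67 replication-dependent genes to 1153 and 2090 TPM, of which 373 and 426 TPM came from the 65 genes other than Hist1h2ao and Hist1h2ap.

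The labelled cell type was checked against fixed markers. All 8 erythroid markers reached 10 TPM in both replicates, among them Gata1 with 163 and 376 TPM and Klf1 with 114 and 198 TPM. None of 6 markers of other lineages reached 1 TPM, and Cd3e was at 0 in both. Of the 8, Gata1, Epor, Hba-a1 and Hbb-bs were at least 2-fold higher in replicate 2, against 8.04% of all genes compared. Tal1 was nearly equal (log2 ratio 0.02), and Tfrc, the transferrin receptor, was lower in replicate 2, with 178 and 80.7 TPM (log2 ratio -0.95). The part of the differences in these markers in the histone values was not tested. A total of 10 histone genes overlap another gene, among them Hist1h1e and Hist1h2be, which overlap each other, and the use of strand in counting is not given in the sources used here. The overlapping genes outside the family all lay below 1 TPM in both replicates, but so did some of the histone genes. Trim17 had 0.87 and 0.66 TPM and overlaps Hist3h2a, with 0.81 and 0.45 TPM, on the same strand. Gm20634 had 0 and 0.1 TPM and overlaps Hist2h3c1, with 0.78 and 0.01 TPM, on the same strand. The others lay below the histone gene they overlap in both replicates.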

How the data were processed

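Polyadenylated RNA of MEL cells was sequenced in 2 libraries of 1 group. Per the labels, the assembly is mm10, and per the text that accompanies the deposited tables the annotation is GENCODE M4. The sources used here name no aligner, no quantifier and no strand setting. The deposited expected counts are reads per gene or transcript estimated by the authors' model, and the deposited TPM and FPKM values are those counts after the authors' scaling for effective length and library size. The deposited percent columns give the share of each transcript in its gene and were not used here. The deposited score columns hold the posterior SD of the count and credibility bounds of TPM, whose level the sources used here do not state. Symbols, models and sequences were read from GENCODE M21 (GRCm38) through unversioned identifiers, and promoters from RefSeq (GRCm38.p6).

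The members and lists were chosen with earlier results of these data known. Named genes are members at 1 TPM or more in both replicates, members at 0, members with the largest ratio either way, up to 6 highest and 4 lowest genes of the other lists, and replacement histones. Other members (such as Hist1h1t, Hist3h2ba, Hist1h2be, Hist1h2bq, Hist1h2br and Hist4h4) are named outside that rule, chosen after their values were seen, for their type, cluster, neighbour or place near a threshold. Overlapping genes outside the family, and some list genes such as Supt16, Rbbp4 and Pcf11, were also named after their values were seen. Library sizes were scaled by TMM in edgeR 4.0.16 on rounded counts, for genes whose counts summed to 20 or more, and log2 ratios took a prior count of 0.5 on expected counts. DESeq2 1.42.0 size factors were an alternative. Shares of TPM and counts are over the 43346 genes, without spike-ins and short features. The stem-loop search was tested on simulated data. Tables were made with Python 3.11.15 and R 4.3.3. Other settings (minimum levels, units, scaling, left-out replicates) were tried, and leaving out Hist1h2ao and Hist1h2ap was added after seeing the data. Precision is limited by 2 replicates and, for genes near 1 TPM, by low read numbers.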

Additional observations from a re-analysis of the deposited data

How the results depend on the processing

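Of the 49 genes at 1 TPM in both replicates, 22 reached 5 TPM, and the count was 49 to 53 when either replicate was left out. The median of 3.87 TPM was 2.76 in units of FPKM, and 3.33 to 4.64 with 1 replicate. The histone share of 0.171% of TPM was 0.0514% of expected counts and 0.0419% without Hist1h2ao and Hist1h2ap, and 0.119% to 0.223% with 1 replicate. Of genes differing 2-fold, 9 became 16 with no count minimum, 12 of them higher in replicate 2, and 5 without genes of uncertain read assignment, all 5 higher in replicate 2. The median log2 ratio of 0.30 was 0.42 with library totals and lay between 0.22 and 0.32 in the other settings. The 5 genes with a posterior SD over 3 times the counting error were 10 at 2 times, 0 at 5 times and 3 with at least 100 counts, and 6 to 8 by 1 replicate. The share of histone TPM on transcripts that run past the stem-loop, 2.14%, was 49.7% when 20 nt were allowed, since Hist1h2ao with 31 nt then joins that class. It was 3.87% of expected counts, 8.21% without Hist1h2ao and Hist1h2ap, and 1.76% to 2.51% with 1 replicate. No value changed sign. No paired analysis was possible because there is 1 group. Depth limits genes below 1 TPM, which had from 0 to 138 counts in a library.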
